A study of Mus musculus with 12 samples.

Results

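The PGC-1, ERR and PPAR regulators of mitochondrial gene expression were examined as 10 genes chosen by name out of the 55536 genes in the count table: the coactivators *Ppargc1a* (PGC-1α) and *Ppargc1b* (PGC-1β), the muscle regulator *Perm1*, the estrogen-related receptors *Esrra* and *Esrrg*, the peroxisome proliferator-activated receptors *Ppara* and *Ppard*, and the factors *Nrf1*, *Tfam*, and *Gabpa*. RNA-seq had been performed on C2C12GFP cells, a single mouse myoblast line that carries green fluorescent protein, after a switch to low-serum medium that turns myoblasts into myotubes. The control cells grew on uncoated plates, and the other 3 groups grew on plates coated with Collagen I, with fibronectin, or with Geltrex™, a basement membrane extract of laminin, Collagen IV, and entactin. Each of the 4 groups had 3 samples, or 12 in all. All groups shared the line, its transgene, and the differentiation medium, and the day on which RNA was taken is not given in the sources used here.

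PGC-1 coactivators bind no DNA themselves. They dock on nuclear receptors such as the ERRs and PPARs and on NRF1. They raise transcription of nuclear genes for respiratory chain subunits, fat oxidation, and TFAM, the protein that packages mitochondrial DNA and acts in its transcription. In skeletal muscle, contraction, calcium, and AMPK signals act on *Ppargc1a* itself, which is abundant in slow oxidative fibers, and *Perm1* is induced downstream of PGC-1 and ERR. GABPA, an ETS factor also called NRF2α, is the DNA-binding subunit of the GABP complex and acts on many of the same nuclear genes as NRF1.

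Counts on genes summed to between 22520404 and 27351766 per sample. CPM here means counts normalized to sequencing depth with edgeR's TMM factors. Levels are means in CPM with the SD of 3 samples, and differences as log2 fold changes, first group over second, with their SE. Of the 10 regulators, 8 passed the filter on low counts and were tested among 14499 genes with edgeR's quasi-likelihood test, adjusted by the Benjamini-Hochberg method. An adjusted p of at most 0.05 passed the threshold. Nothing says that the 3 samples of a group came from separate cultures, so the p-values measure the spread between these samples, which may be technical.

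Marker genes of myotubes were at hand in every group, but in unequal amounts. The summed CPM of 15 myotube markers, such as *Myog* and *Ckm*, ran from 11487 to 12186 on Collagen I, from 10824 to 11990 in the control, from 3491 to 3998 on fibronectin, and from 5133 to 5585 on Geltrex™. The summed CPM of 13 markers of cycling myoblasts, such as *Mki67*, ran from 275 to 296 on Collagen I, from 318 to 374 in the control, from 789 to 1001 on fibronectin, and from 834 to 898 on Geltrex™. Of these 13, 11 were higher on fibronectin and on Geltrex™ than in the control, while *Myf5* and *Pax7* did not pass. Of all genes, 31.9% and 33.0% passed an adjusted p of 0.05 in these comparisons, in either direction. *Myf5* averaged 32.5 to 36.1 CPM in the 4 groups. *Pax7* averaged 0.217 CPM on Geltrex™ against 0.558 CPM in the control (-1.35, adjusted p = 0.0533). Among 8 adipocyte markers, *Adipoq*, *Cidec*, *Lep*, *Retn*, and *Cfd* never exceeded 3 counts in a sample. Nor did 5 of 8 osteoblast and cartilage markers and 4 of 8 markers of blood, endothelium, and nerve. Others were expressed, with group means of 110 to 116 CPM for *Sox9*, 52.8 to 79.7 CPM for *Runx2*, and 12.3 to 17.7 CPM for *Cebpa*. On Collagen I, *Runx2* (-0.59 and -0.52) and *Cebpa* (-0.45 and -0.52) were lower than on fibronectin and Geltrex™, while *Sox9* did not pass. In RNA from whole cultures, fewer cells of a type and less RNA per cell cannot be told apart, and the part of these markers in the results that follow was not tested.

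The regulators spanned a wide range of levels, which are compared here per kilobase of exon. *Gabpa* was highest, at a mean of 23.7 CPM per kb over the 12 samples, followed by *Tfam* at 13.0 CPM per kb. *Ppard* (3.01 CPM per kb), *Esrra* (2.72), *Nrf1* (2.47), and *Ppargc1b* (2.08) stood close together, and the samples of neighbors in this order overlapped, whereas *Gabpa* and *Tfam* did not overlap with each other or with the rest. *Ppargc1a* had only 0.359 CPM per kb and *Perm1* 0.230 CPM per kb, which placed them at percentiles 12.8 and 8.52 of the tested genes.

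*Ppara* and *Esrrg* were near the limit of what these libraries could count. *Ppara*, the receptor that drives fat oxidation in liver and oxidative muscle, had 1 to 9 counts per sample and 50 in all. *Esrrg*, the ERR of highly oxidative fibers, had 0 to 3 counts per sample, 11 in all, and none in 5 samples. Since 3 counts correspond to between 0.110 and 0.135 CPM, these counts sit near the floor, and both genes fell below the filter. Tested without a filter, neither passed in any of the 6 comparisons, with unadjusted p-values of at least 0.234 for *Ppara* and 0.224 for *Esrrg*. *Esrra* made up at least 99.28% of the *Esrra* and *Esrrg* signal per kb in every sample.

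**Figure D1:**
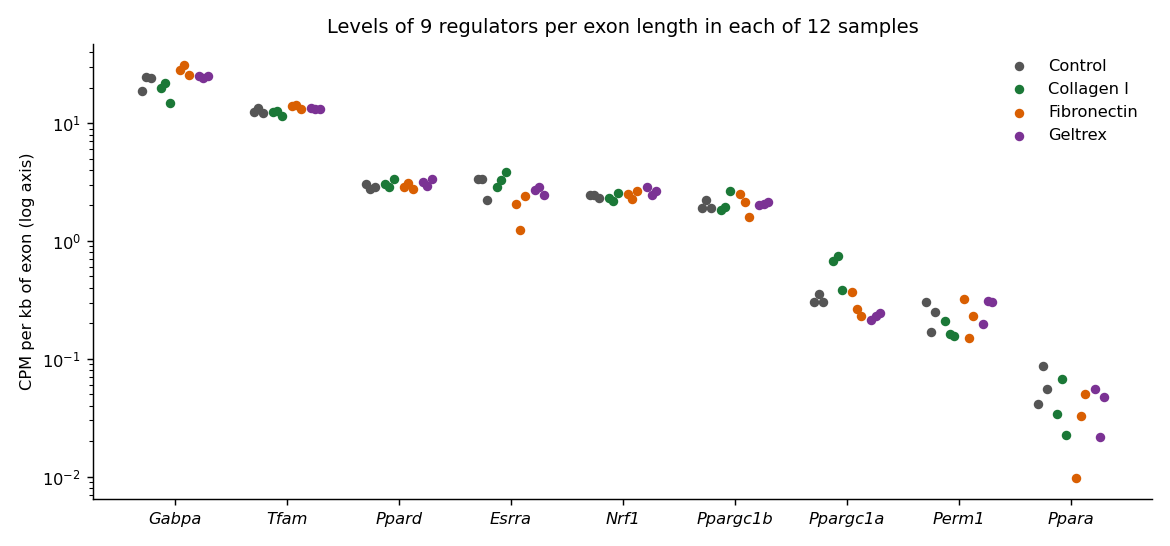
Level of 9 regulators in CPM per kb of exon on a log axis, with 1 point for each of the 12 samples and a color for each group. *Esrrg* is left out because 5 samples had no count. *Gabpa* and *Tfam* lie highest, *Ppargc1a*, *Perm1*, and *Ppara* lowest, and the Collagen I points of *Ppargc1a* lie above those of the other groups.

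The coactivators were compared first, since *Ppargc1a* is the member best known as a switch for oxidative fibers. *Ppargc1a* (ENSMUSG00000029167) lies on the minus strand of GRCm38 at chr5:51454250-51567726. Its counts were 102, 131, and 59 on Collagen I, 50, 64, and 47 in the control, 65, 42, and 39 on fibronectin, and 33, 37, and 36 on Geltrex™. In CPM these were 4.42, 4.87, and 2.54 on Collagen I, 1.99, 2.35, and 1.996 in the control, 2.41, 1.76, and 1.51 on fibronectin, and 1.41, 1.52, and 1.62 on Geltrex™. Every Collagen I sample was above every other sample, but the third Collagen I sample only narrowly so, while the first and second stood far apart from the rest.

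*Ppargc1a* was 2.08-fold higher on Collagen I than on fibronectin (log2 fold change 1.06, SE 0.24, adjusted p = 0.00247) and 2.60-fold higher than on Geltrex™ (1.38, SE 0.25, adjusted p = 0.000509). Both differences passed the threshold without any 1 of the 12 samples, ranging from 0.87 to 1.29 for fibronectin and from 1.19 to 1.61 for Geltrex™. Relative to the control, *Ppargc1a* was 1.87-fold higher on Collagen I (0.90, SE 0.24), short of the threshold at an adjusted p of 0.0752. That difference passed it without the third Collagen I sample (1.13, adjusted p = 0.0179), with DESeq2 (0.90, adjusted p = 0.0425), and with no filter on low counts (adjusted p = 0.00515). Against the control, *Ppargc1a* missed the threshold on fibronectin (-0.15, adjusted p = 0.683), where the samples overlapped, and on Geltrex™ (-0.48, adjusted p = 0.184), where all 3 samples lay below all control samples. The order of the group means was Collagen I, control, fibronectin, and Geltrex™. The means were 3.94 ± 1.23 CPM on Collagen I and 2.11 ± 0.205 CPM in the control.

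*Ppargc1b*, the paralog of PGC-1α, showed no such pattern. It lay between 6.41 and 10.7 CPM over all samples, the 4 groups overlapped, and its group means ran only from 8.02 to 8.55 CPM. Its log2 fold change on Collagen I was 0.03 against fibronectin (95% interval -0.33 to 0.39) and 0.05 against Geltrex™ (95% interval -0.31 to 0.41). *Pprc1*, the third gene of the PGC-1 family and one of the partner genes below, was lower on Collagen I than on fibronectin (-0.28, SE 0.09, adjusted p = 0.0262) and was at 0.07 against Geltrex™ (adjusted p = 0.575). Per kb of exon, *Ppargc1a* supplied 4.51% to 9.04% of the summed signal of these 3 genes on Collagen I, against 3.54% to 3.89% in the control, 2.86% to 3.45% on fibronectin, and 2.70% to 3.26% on Geltrex™. *Pprc1* supplied 64.3% to 76.0% in every sample.

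*Perm1* (PGC-1- and ERR-induced regulator in muscle) did not follow *Ppargc1a*. Its counts were 19, 17, and 14 on Collagen I, 30, 18, and 23 in the control, 34, 14, and 23 on fibronectin, and 18, 29, and 26 on Geltrex™. The groups overlapped and the Collagen I mean was the lowest, at 0.686 ± 0.119 CPM. Its log2 fold changes on Collagen I, of -0.42 against fibronectin (95% interval -1.17 to 0.33), -0.61 against Geltrex™ (-1.35 to 0.14), and -0.45 against the control (-1.20 to 0.30), did not pass the threshold, and the intervals extend further below 0 than above it.

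**Figure D2:**
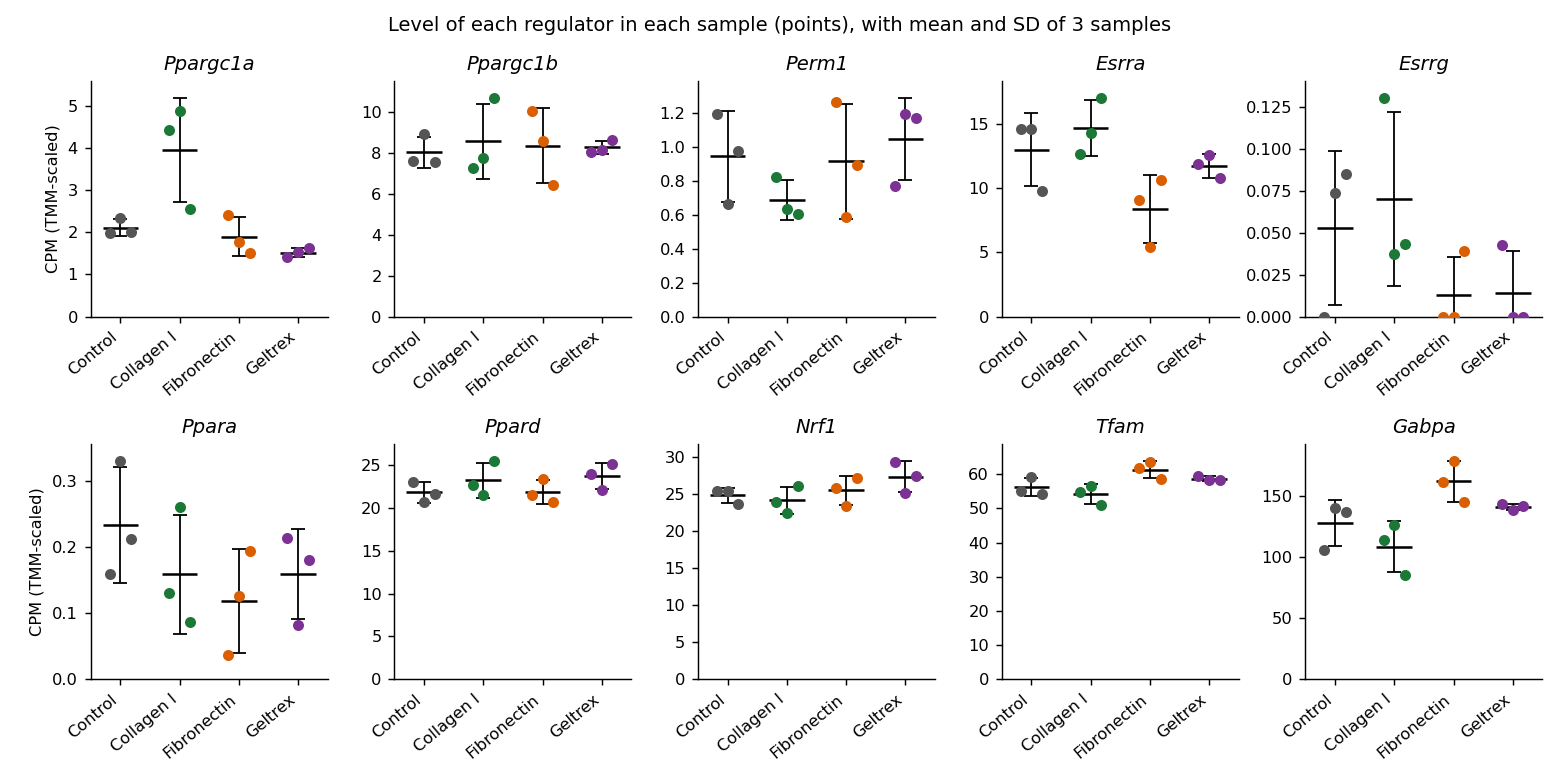
CPM of each of the 10 regulators in the 12 samples, with points for samples, a horizontal line for the group mean, and bars for the SD of 3 samples; each panel has its own axis from 0. *Ppargc1a* is highest in the 3 Collagen I samples, at 2.54 to 4.87 CPM, while *Ppargc1b*, *Ppard*, *Nrf1*, and *Tfam* change little between groups.

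Among the receptors, *Esrra* (ERRα, ENSMUSG00000024955, minus strand, chr19:6910977-6921813) differed between coatings. It stood at 12.7, 14.3, and 17.0 CPM on Collagen I, 14.6, 14.6, and 9.77 CPM in the control, 9.10, 5.40, and 10.6 CPM on fibronectin, and 11.9, 12.6, and 10.8 CPM on Geltrex™. The Collagen I samples lay above all fibronectin and Geltrex™ samples, with the second fibronectin sample far below the rest, and the third control sample lay among the fibronectin samples. *Esrra* was 1.75-fold higher on Collagen I than on fibronectin (log2 fold change 0.80, SE 0.20, adjusted p = 0.00495), and 1.55-fold lower on fibronectin than in the control (-0.64, SE 0.20, adjusted p = 0.0268). The differences of 0.32 between Collagen I and Geltrex™ and 0.17 between Collagen I and the control stayed short of the threshold, with adjusted p-values of 0.226 and 0.716. The fibronectin difference from the control was lost when the first or the second control sample or the second fibronectin sample was left out (adjusted p = 0.1002, 0.0914, and 0.111).

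*Esrra* moved together with the base composition of the libraries. The mean GC content of the expressed genes, weighted by their level on a log2 scale, was lowest in the second fibronectin library (48.76%) and highest in the third Collagen I library (49.18%), the libraries that also had the lowest and the highest *Esrra*. With this GC content as a covariate, chosen after seeing the data, the *Esrra* difference between Collagen I and fibronectin was 0.23 (adjusted p = 0.420) and that between fibronectin and the control -0.18 (adjusted p = 0.488). Without those 2 libraries, the Collagen I and fibronectin difference was 0.46 (adjusted p = 0.0571). The GC content was computed from the same counts, and its part in the result was not tested. *Ppargc1a*, treated in the same way, remained past the threshold against fibronectin (1.45 with the covariate, adjusted p = 0.00315) and Geltrex™ (1.53, adjusted p = 0.000136), and with the covariate it also passed against the control (0.97, adjusted p = 0.0214).

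**Figure D3:**
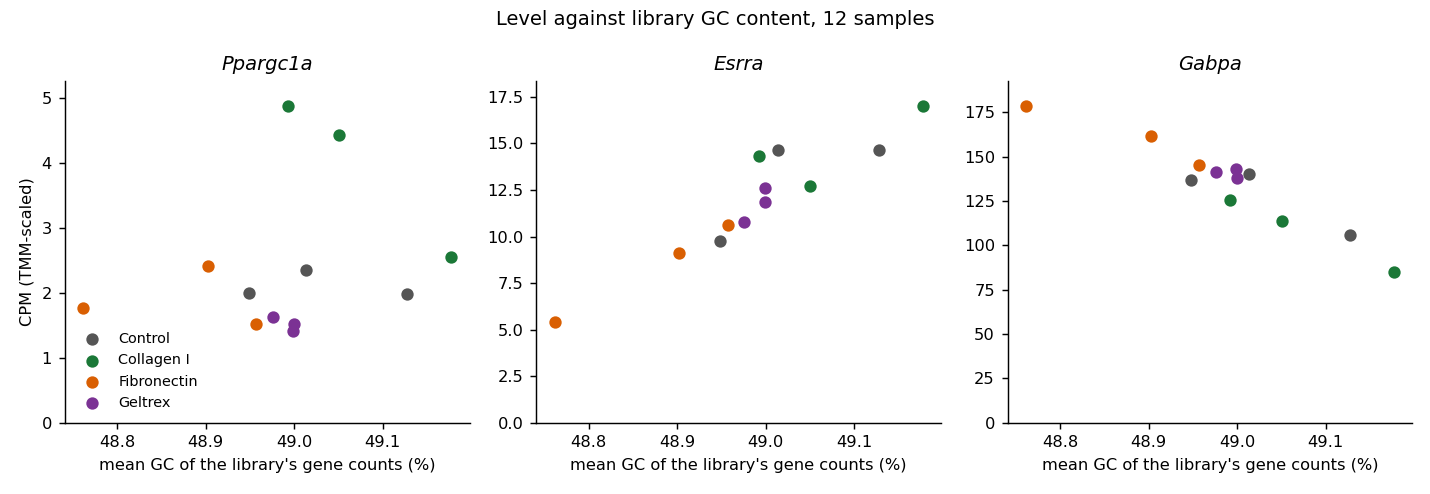
CPM of *Ppargc1a*, *Esrra*, and *Gabpa* (vertical axes from 0) against the mean GC content of each library's gene counts in percent, with 1 point per sample. *Esrra* is highest and *Gabpa* lowest in the libraries of high GC content, 49.18% at most. The 2 highest *Ppargc1a* samples, the second and first of Collagen I, lie at 48.99% and 49.05%.

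*Ppard*, the receptor of the PPAR family that prevails in skeletal muscle, was steady. It lay between 20.7 and 25.4 CPM in all 12 samples, all groups overlapped, and its log2 fold changes in the 6 comparisons ran from -0.12 to 0.12 with adjusted p-values from 0.354 to 0.984. The fat cell receptor *Pparg*, one of the partner genes, was lower on Collagen I than on fibronectin (-0.53, SE 0.12) and Geltrex™ (-0.44). Per kb, *Pparg* took 49.7% to 65.8% of the PPAR signal, *Ppard* 33.7% to 49.9%, and *Ppara* at most 1.29%.

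The DNA-binding factors that act beside the receptors split in their behavior. *Gabpa* (ENSMUSG00000008976, plus strand, chr16:84834925-84863779) stood at 114, 126, and 85.1 CPM on Collagen I, 106, 140, and 137 CPM in the control, 162, 178, and 145 CPM on fibronectin, and 143, 138, and 141 CPM on Geltrex™. All Collagen I samples lay below all fibronectin and Geltrex™ samples, with the third Collagen I sample lowest, and the first control sample lay among those of Collagen I. *Gabpa* was 1.49-fold lower on Collagen I than on fibronectin (log2 fold change -0.58, SE 0.13, adjusted p = 0.00229) and 1.30-fold lower than on Geltrex™ (-0.38, SE 0.13, adjusted p = 0.0323). Relative to the control it was at -0.24 on Collagen I (adjusted p = 0.414) and 0.34 on fibronectin (adjusted p = 0.0552). The latter lay close to the threshold and passed it with DESeq2 (adjusted p = 0.0461), with no filter (0.00290), with a replicate block (0.0402), and without the second or the third Collagen I sample, the second control sample, or the third fibronectin sample (0.0194 to 0.0422). With GC content as a covariate it was 0.0074 (adjusted p = 0.964).

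Limits of the *Gabpa* result lay in the same libraries. With GC content as a covariate, its difference from fibronectin was -0.16 (adjusted p = 0.267) and from Geltrex™ -0.22 (adjusted p = 0.0270), and without the third Collagen I sample the latter was -0.23 (adjusted p = 0.139). The Geltrex™ difference also missed the threshold without the first Collagen I sample (-0.42, adjusted p = 0.05004) and without any 1 of the Geltrex™ samples (adjusted p = 0.0667 to 0.0822). *Gabpa* shares 6.98% of its exon length with *Atp5j* on the opposite strand, and *Esrra* shares 1.66% with *Trmt112*. Strand use in counting is not given in the sources used here, so such reads cannot be told apart. *Atp5j* moved against *Gabpa* (0.43 on Collagen I over fibronectin, adjusted p = 0.000772), and *Trmt112* moved with *Esrra* (0.44, adjusted p = 0.0127).

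The β subunits that pair with GABPA were also lower on Collagen I than on the other coatings, but did not pass against the control (-0.35 for *Gabpb1*, adjusted p = 0.196, and 0.12 for *Gabpb2*, adjusted p = 0.492). Relative to the control, *Gabpb2* was higher by 0.87 for fibronectin (adjusted p = 9.96e-07) and by 0.42 for Geltrex™ (adjusted p = 0.000910). *Gabpb1* averaged 19.9 ± 3.39 CPM with Collagen I and 29.1 ± 3.54 CPM with fibronectin (-0.55, SE 0.13, adjusted p = 0.00241). *Gabpb2* was at 53.3 ± 2.37 and 89.6 ± 8.58 CPM (-0.75, SE 0.08, adjusted p = 3.44e-06). Both were lower on Collagen I than on Geltrex™ as well, at -0.38 for *Gabpb1* (adjusted p = 0.0265) and -0.29 for *Gabpb2* (adjusted p = 0.0103).

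*Nrf1* and *Tfam* differed little. *Nrf1* lay between 22.4 and 29.3 CPM over all samples with log2 fold changes from -0.18 to 0.14. Its lowest value, Collagen I against Geltrex™ (adjusted p = 0.142), passed the threshold with GC content as a covariate (-0.26, adjusted p = 0.0149). *Tfam* stood at 54.9, 56.6, and 51.0 CPM on Collagen I, 55.2, 59.1, and 54.2 CPM in the control, 61.9, 63.5, and 58.6 CPM on fibronectin, and 59.5, 58.2, and 58.3 CPM on Geltrex™. All *Tfam* values on Collagen I were below those on fibronectin and Geltrex™, yet by small steps. Its difference of -0.18 between Collagen I and fibronectin (SE 0.07, adjusted p = 0.0570) fell just outside the threshold, and passed it with DESeq2 (-0.19, adjusted p = 0.0415), with RLE normalization (adjusted p = 0.0488), and without the third fibronectin sample (-0.22, adjusted p = 0.0422).

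Read over all 8 tested regulators, 3 passed the threshold between Collagen I and fibronectin (*Ppargc1a* and *Esrra* higher, *Gabpa* lower), where 45.0% of all genes did. Between Collagen I and Geltrex™ 2 passed (*Ppargc1a* higher, *Gabpa* lower), against 37.1% of all genes. Between fibronectin and the control 1 passed (*Esrra*, lower), against 31.9% of all genes. None passed between Collagen I and the control, Geltrex™ and the control, or fibronectin and Geltrex™, against 1.12%, 33.0%, and 19.3% of all genes, and 1, 0, and 1 regulators had an unadjusted p under 0.05 in those comparisons. With DESeq2, *Ppargc1a* passed between Collagen I and the control, and without a filter on low counts *Esrra* passed between fibronectin and Geltrex™ (-0.49, adjusted p = 0.00664). The comparisons share groups and are not independent of each other. With a fold of at least 2 as well, *Ppargc1a* alone passed, against fibronectin (8.46% of all genes) and against Geltrex™ (9.32%), and no regulator did in the comparisons of Collagen I, fibronectin, and Geltrex™ with the control (0.131%, 6.66%, and 9.14% of all genes) or of fibronectin with Geltrex™ (3.98%).

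Groups that did not overlap were counted in the same way. Between Collagen I and fibronectin these were *Ppargc1a*, *Esrra*, *Gabpa*, and *Tfam*, or 4 of 8 regulators against 51.4% of all genes, and the same genes, 4 of 8, did not overlap between Collagen I and Geltrex™, against 54.7% of all genes. *Ppargc1a* was the 1 regulator that did not overlap between Collagen I and the control (17.3% of all genes) and between Geltrex™ and the control (50.4%), and *Gabpa* the 1 between fibronectin and the control (41.6%). *Esrra* and *Gabpa*, 2 regulators, did not overlap between fibronectin and Geltrex™ (42.7%). In all 6 comparisons the share of regulators was below that of all genes.

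**Figure D4:**
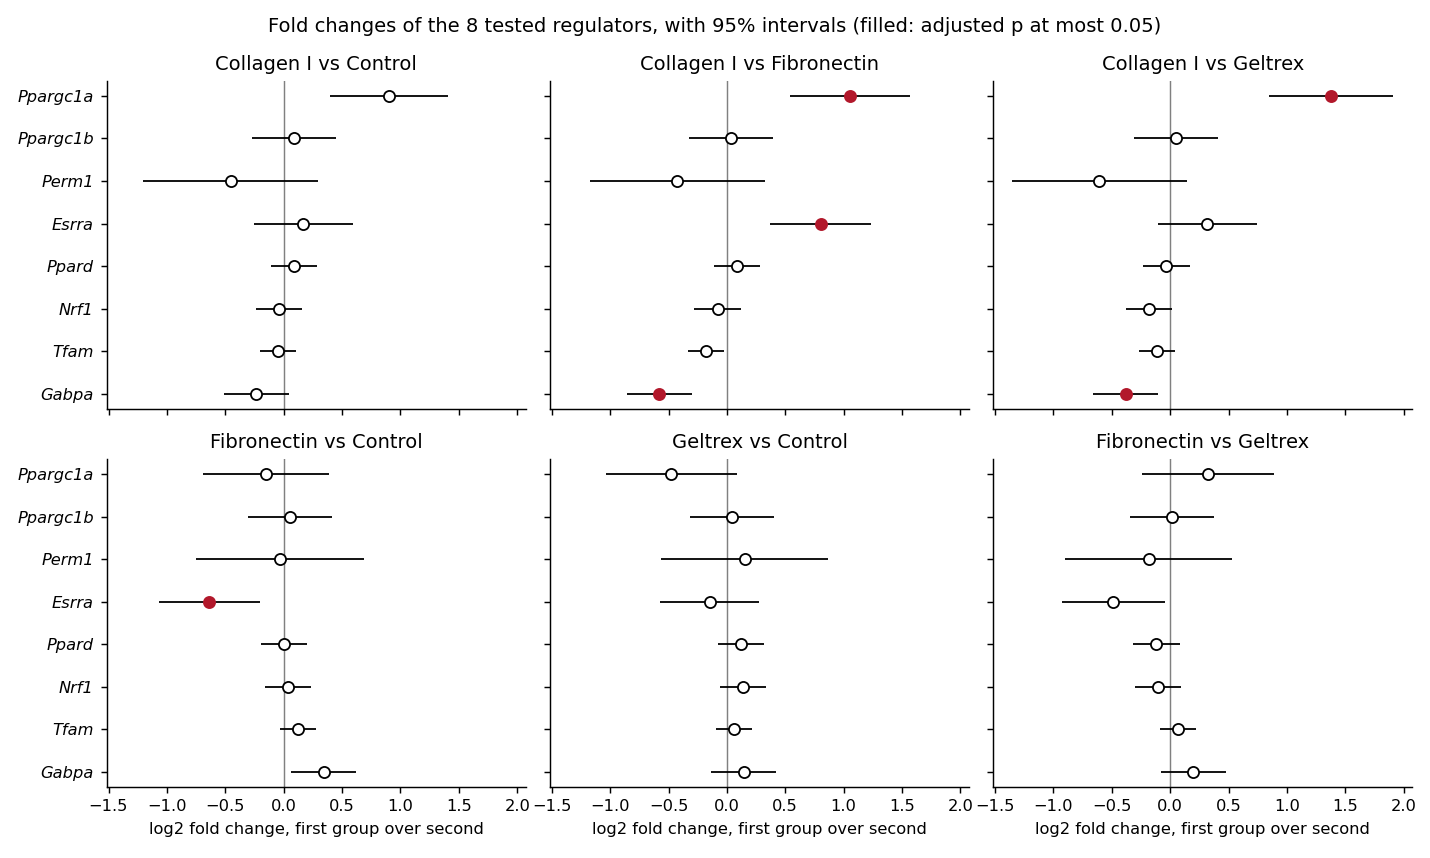
Log2 fold change (horizontal axis, first group over second) of the 8 tested regulators in the 6 comparisons, with 95% intervals; filled points have an adjusted p of at most 0.05. *Ppargc1a* lies at 1.06 and 1.38 for Collagen I over fibronectin and Geltrex™, *Esrra* at 0.80 over fibronectin, and *Gabpa* at -0.58 and -0.38.

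Promoter sequences of the regulators that passed the threshold are shown next, since the regulators are known to act on each other's genes. RefSeq windows of GRCm38.p6 held 9 of the 10 members, and the 250 bases before the start were searched on both strands for the ERR site AAGGTCA, the NRF1 palindrome (GCGC and TGCGC with 1 base between them), the GABP site CCGGAAG, the cAMP response element TGACGTCA, the PPAR direct repeat (AGGTCA and AGGTCA with 1 base between, which contains the ERR site where that base is A), and the E-box CAGCTG. These letters occurred in 4.08%, 3.74%, 6.91%, 1.55%, 0.0335%, and 13.0% of all 32851 windows. Matches are in capitals, and each sequence reads 5′ to 3′ toward the start of transcription. *Ppargc1a* has further promoters in muscle, and gene counts do not separate their transcripts.
*Ppargc1a*, chr5:51567726-51567975, minus strand: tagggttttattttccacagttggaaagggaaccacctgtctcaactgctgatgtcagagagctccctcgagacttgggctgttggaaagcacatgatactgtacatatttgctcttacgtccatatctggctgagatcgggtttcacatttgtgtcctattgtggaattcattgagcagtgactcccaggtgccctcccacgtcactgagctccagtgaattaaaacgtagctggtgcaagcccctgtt
*Esrra*, chr19:6921809-6922058, minus strand: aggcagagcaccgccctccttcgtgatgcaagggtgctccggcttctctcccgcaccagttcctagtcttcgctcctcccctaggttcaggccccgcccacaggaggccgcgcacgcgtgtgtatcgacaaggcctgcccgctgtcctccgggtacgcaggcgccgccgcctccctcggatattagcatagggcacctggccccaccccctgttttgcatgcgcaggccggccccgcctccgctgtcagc
*Gabpa*, chr16:84834874-84835123, plus strand: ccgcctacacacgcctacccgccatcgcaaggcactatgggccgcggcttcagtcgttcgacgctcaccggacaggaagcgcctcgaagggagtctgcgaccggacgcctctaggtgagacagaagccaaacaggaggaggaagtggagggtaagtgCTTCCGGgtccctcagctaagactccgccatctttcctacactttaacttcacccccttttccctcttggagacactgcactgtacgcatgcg

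The *Gabpa* window held 1 GABP site, on its minus strand, 93 to 87 bases before the start. The *Ppargc1a* and *Esrra* windows held none of the 6 motifs, which says only that these letters are not in these windows. Of the regulators that did not pass, *Tfam* and *Perm1* are shown as short stretches around their matches, a GABP site 47 to 41 bases and an ERR site on the minus strand 202 to 196 bases before the start. The *Ppara* window held an NRF1 palindrome 31 to 22 bases before the start and the *Ppard* window 2 E-boxes, 226 to 221 and 175 to 170 bases before it, and the windows of *Nrf1* and *Esrrg* held no match.
*Tfam*, chr10:71238055-71238121, minus strand: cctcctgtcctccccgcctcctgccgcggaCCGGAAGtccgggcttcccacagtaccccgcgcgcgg
*Perm1*, chr4:156215695-156215761, plus strand: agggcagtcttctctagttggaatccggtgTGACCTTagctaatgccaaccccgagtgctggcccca

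Of the genes known to act on *Ppargc1a*, all 24 listed were tested. On Collagen I, 8 were higher and 5 lower than on fibronectin, where 22.1% of all genes were higher and 22.9% lower, and 6 were higher and 4 lower than on Geltrex™, where the shares were 18.2% and 19.0%. None passed against the control, where 1.12% of all genes did. In that comparison edgeR gave 3 with an unadjusted p under 0.05 and DESeq2 called none. Calcium/calmodulin kinase genes were among the largest. *Camk2b* stood at 11.96 ± 0.678 CPM with Collagen I, 3.09 ± 0.933 CPM with fibronectin, and 3.501 ± 0.756 CPM with Geltrex™ (log2 fold changes 1.95 and 1.77), and *Camk2a* was higher by 1.22 and 0.76. *Mef2c*, a muscle factor that acts on the *Ppargc1a* promoter, exceeded its fibronectin level by 1.24 (adjusted p = 2.25e-05) and its Geltrex™ level by 1.36 (adjusted p = 8.60e-06). *Tfeb*, a lysosome regulator, was higher by 0.83 and 0.56. The 5 genes lower than on fibronectin were *Camk4* (-1.73, at only 0.151 ± 0.108 CPM on Collagen I), *Prkaa1*, *Fnip1*, *Creb1*, and *Atf2*, and the 4 lower than on Geltrex™ were *Fnip1*, *Camk2g*, *Crtc2*, and *Ppp3cb*. The AMPK catalytic subunit genes thus parted against fibronectin, with *Prkaa2* higher by 0.78 and *Prkaa1* lower, at -0.53.

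Coactivators, corepressors, and partners of the regulators mostly had lower levels on Collagen I. Of 22 listed genes, 20 were tested. Relative to fibronectin 11 were lower and 1 higher, where 22.9% of all genes were lower and 22.1% higher. Relative to Geltrex™ 12 were lower and none higher, where the shares were 19.0% and 18.2%. None passed against the control, where 1.12% of all genes did, 4 of these had an unadjusted p under 0.05 in edgeR, and DESeq2 called 1. The median log2 fold changes of the list against fibronectin and Geltrex™ were -0.31 and -0.32, beside 0.02 and 0.03 over all genes. *Lpin1*, a PGC-1 partner that also makes diacylglycerol, was lower by -0.76 than on fibronectin, and *Nrip1* (RIP140, a repressor of oxidative genes) was at 37.7 ± 8.49 CPM against 66.8 ± 4.33 CPM on Geltrex™ (-0.83, SE 0.15, adjusted p = 0.000454). The exception was *Rxrb*, a partner receptor of the PPARs, at 0.71 over fibronectin (SE 0.18, adjusted p = 0.00525). With GC content as a covariate, 3 in place of 12 of these genes passed against fibronectin. The share of all genes that passed in that fit was not determined.

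In the machinery that copies and transcribes mitochondrial DNA, where TFAM acts, all 18 listed genes were tested. On Collagen I, 3 were higher than on fibronectin, *Polrmt*, *Mterf4*, and *Ssbp1*, and none was lower. In that comparison 22.1% of all genes were higher and 22.9% lower. *Mterf4* shares 35.2% of its exon length with *Sned1* on the opposite strand, so its counts may hold reads of *Sned1*. *Polrmt*, the mitochondrial RNA polymerase, was at 26.9 ± 1.76 CPM against 18.1 ± 2.47 CPM (0.57, SE 0.11, adjusted p = 0.000671). Against Geltrex™, where 18.2% of all genes were higher and 19.0% lower, 8 were higher and none lower. Among them were *Tefm* (0.52) and *Twnk* (0.48), the elongation factor and the helicase. *Mterf1a* (1.67) and *Mterf1b* (1.25) led that comparison, but these are near-identical copies among which counting could split reads. The median was 0.15 against fibronectin and 0.31 against Geltrex™. Against the control, where 1.12% of all genes passed, none did in edgeR, at an unadjusted p under 0.05, or with DESeq2.

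Of the 26 genes of oxidative metabolism known as ERR targets, 25 were tested. Relative to fibronectin 19 were higher on Collagen I and none lower, with a median log2 fold change of 0.39, where 22.1% of all genes were higher and 22.9% lower. Relative to Geltrex™ 8 were higher and none lower, with a median of 0.20, where 18.2% of all genes were higher and 19.0% lower. None passed against the control, where 1.12% of all genes did. The median there was 0.07, 1 had an unadjusted p under 0.05 in edgeR, and DESeq2 called none. The largest differences were in muscle forms and in *Mb*. *Mb* (myoglobin) stood at 83.0 ± 8.99 CPM with Collagen I, 25.9 ± 5.08 CPM with fibronectin, and 19.2 ± 2.35 CPM with Geltrex™, and the muscle cytochrome oxidase subunit genes *Cox8b* (1.98 and 1.63) and *Cox6a2* (1.23 and 1.24) were higher in both comparisons. *Mb* shares 27.6% of its exon length with *Gm49540* on the opposite strand, so its counts may hold reads of *Gm49540*. *Cox7a1* was higher than on fibronectin by 1.99, though at 0.684 ± 0.229 CPM, and was at 0.42 against Geltrex™ (adjusted p = 0.377). Ubiquitous subunits moved less, such as *Atp5o* at 0.64 over fibronectin, which shares exons with neighboring gene models. *Cs* (citrate synthase) and *Cycs* (cytochrome c) were at 0.05 and 0.14 against fibronectin (adjusted p = 0.644 and 0.117). Over the same comparisons, all 14 tested myotube markers were higher on Collagen I, with medians of 1.94 and 1.25. With GC content as a covariate, 10 of the ERR targets passed against fibronectin, and the share of all genes in that fit was not determined.

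PPAR targets of lipid use went both ways. Of 25 listed genes, 22 were tested, with 8 higher and 5 lower on Collagen I than on fibronectin and 7 higher and 4 lower than on Geltrex™, where 45.0% and 37.1% of all genes were called. *Fabp3*, the muscle fatty acid carrier, averaged 20.9 ± 2.33 CPM with Collagen I, compared with 3.67 ± 0.948 CPM for fibronectin and 5.57 ± 0.961 CPM for Geltrex™ (2.50 and 1.91), and the fatty acid transporter *Cd36* was higher by 2.05 and 2.17. The genes lower than on fibronectin were *Pdk4*, *Txnip*, *Cpt1a*, *Acsl1*, and *Angptl4*, and those lower than on Geltrex™ were *Lpl*, *Angptl4*, *Cpt1a*, and *Acsl1*. *Lpl* (lipoprotein lipase) was at 41.9 ± 1.31 CPM against 108 ± 1.09 CPM on Geltrex™ (-1.37, SE 0.12, adjusted p = 2.80e-07). *Txnip* took opposite directions, at -0.66 against fibronectin and 1.504 against Geltrex™. Against the control, where 1.12% of all genes passed, 8 of the 22 had an unadjusted p under 0.05 in edgeR and DESeq2 called 1. *Pdk4* is the kinase that closes pyruvate dehydrogenase and a common readout of PPARδ. It was the only gene of the 6 lists to pass between Collagen I and the control, at 26.6 ± 3.22 CPM against 41.3 ± 4.75 CPM (-0.64, SE 0.13, adjusted p = 0.0226). That call was lost without any 1 Collagen I sample or without the second or the third control sample.

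The mRNAs encoded by mitochondrial DNA itself varied widely among Collagen I samples. All 13 were tested. Relative to fibronectin 3 were higher on Collagen I, *mt-Co1*, *mt-Co2*, and *mt-Co3*, and relative to Geltrex™ these 3 and *mt-Nd3*. None passed against the control, where 1.12% of all genes did (1 with an unadjusted p under 0.05 in edgeR, none with DESeq2). Of these 13, 23.1% were higher than on fibronectin and 30.8% than on Geltrex™, and none was lower. Of all genes, 22.1% were higher and 22.9% lower against fibronectin, and 18.2% higher and 19.0% lower against Geltrex™. *mt-Co1* averaged 25539 ± 9704 CPM with Collagen I and 16070 ± 2263 CPM with fibronectin (0.67, SE 0.20, adjusted p = 0.0141). The third Collagen I library, with 11.5% of its counts on the mitochondrial genome against 4.56% to 8.28% in the others, had the highest share, and without it 1 gene passed in each comparison. Leaving out other samples in turn gave 1 to 9 such genes against fibronectin and 1 to 10 against Geltrex™. A stretch of the mitochondrial genome that includes *mt-Co2*, *mt-Co3*, and *mt-Nd3* has a close copy in the nuclear genome, so the counts of these genes are uncertain.

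**Figure D5:**
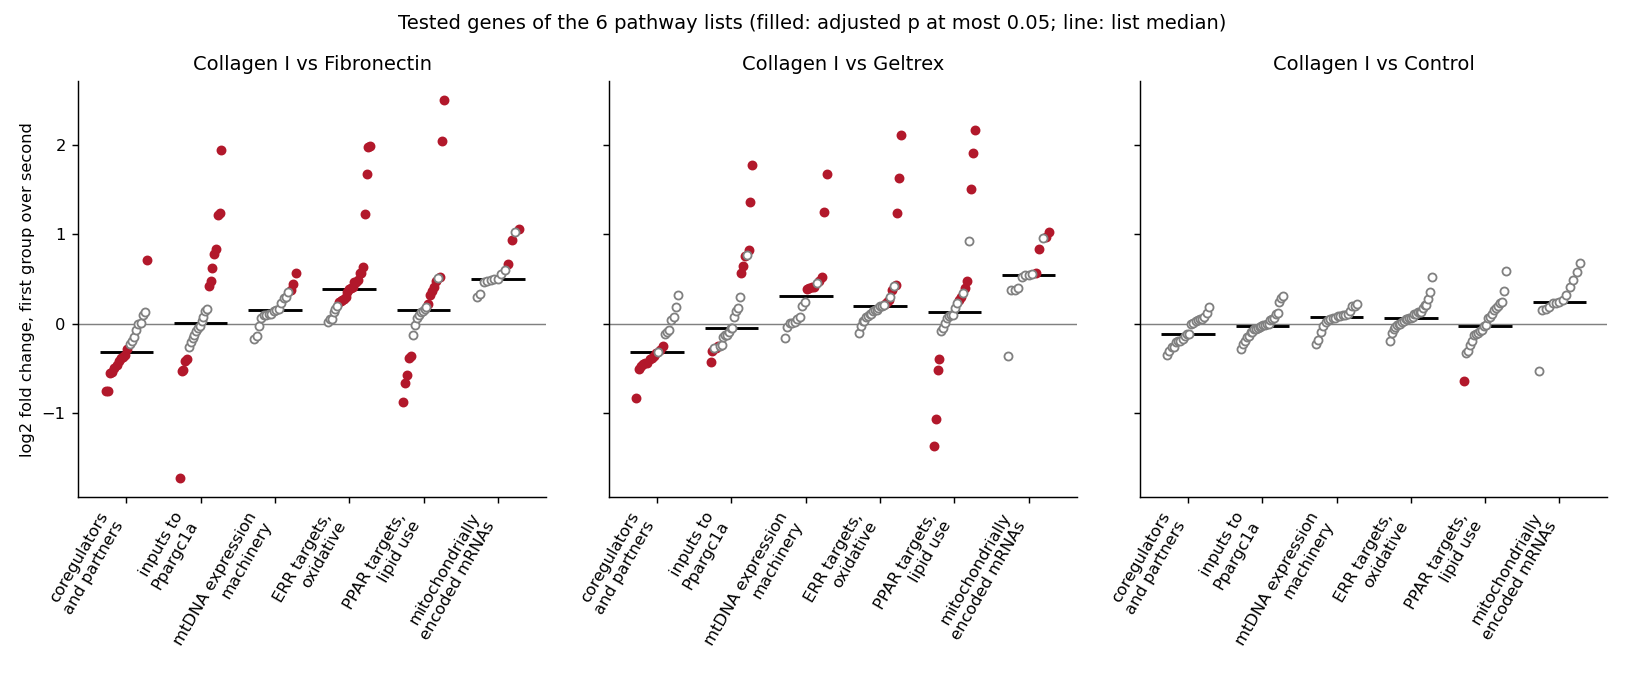
Log2 fold change (vertical axis, first group over second) of each tested gene of the 6 lists in the 3 comparisons of Collagen I; filled points have an adjusted p of at most 0.05 and lines mark list medians. Partner genes lie mostly below 0 and ERR targets above 0 against fibronectin and Geltrex™, whereas against the control only *Pdk4* is filled, at -0.64.

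Genes whose levels over the 12 samples were most like those of 3 regulators were listed among 12320 genes with a mean of at least 1 CPM, by the root mean square difference of their centered log2 CPM. For *Ppargc1a*, which itself varied by 0.539 about its mean on this scale, the nearest were the noncoding transcript *Gm19391* (0.267), the cGMP-dependent kinase gene *Prkg1* (0.273), and the zinc finger gene *Zfp3* (0.2998). For *Esrra* (0.413) they included *Rxrb* (0.0801) and *Cyc1* (0.113), which encodes cytochrome c1. For *Perm1* (0.366) they were *Slc22a21* (0.199), *Rps10* (0.209), and *AC122442.1* (0.218). *Rps10* has close copies among which reads could be split. The samples behind these values share their libraries, and with them the differences in GC content and mitochondrial reads described above.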

How the data were processed

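RNA of 12 samples was sequenced as paired reads. The authors used FastQC for quality control, Trimmomatic for trimming, HISAT2 for alignment, and featureCounts for counting. They deposited raw, unpooled counts for each gene in each sample. Versions, genome build, annotation, strand setting, and the handling of multiply mapped reads are not given in the sources used here, and multiply mapped reads could change genes with close copies. All 55536 identifiers were found in GENCODE M21 (GRCm38), which gave names, positions, and exon lengths.

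Genes were kept by filterByExpr of edgeR 4.0.16 in R 4.3.3 (minimum count 10, minimum total 15). The 14499 genes left were scaled by TMM and fitted in 1 quasi-likelihood model of the 4 groups with 8 residual degrees of freedom, giving 6 comparisons, each with Benjamini-Hochberg adjustment across the genes tested. SEs were derived from the log2 fold change and its F statistic. The pathway lists were described by counts and medians, with no set test. The members and lists were chosen with earlier results of these data known.

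Named genes were the 10 members, up to 5 genes of each pathway list with the largest absolute log2 fold change among those passing in either comparison of Collagen I with a coated group, the genes of nearest pattern, and the genes behind counts of 5 or fewer. *Pprc1*, *Pparg*, *Prkaa2*, *Cs*, *Cycs*, and the exon neighbors *Atp5j* and *Trmt112* were added after their values were seen. Each test was repeated with DESeq2 1.42.0, RLE normalization, other filters, other sets of samples, and a replicate block. A GC covariate and the fit without the libraries of highest and lowest GC content were chosen after seeing the data. The edgeR test of Collagen I against fibronectin had first been tried on simulated counts, and the other tests and comparisons had not. Intervals cover the spread between samples and floors the counting error alone, as PCR copies may be counted more than once. Depth per sample lay between 22520404 and 27351766 counts. A gene of nearest pattern is not reported here.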

Additional observations from a re-analysis of the deposited data

How the results depend on the processing

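With a GC covariate, 1 regulator passed between Collagen I and the control, 1 between Collagen I and fibronectin, and 0 between fibronectin and the control, and in the lists against fibronectin 3 partners, 8 inputs, 1 gene of the mitochondrial DNA machinery, 10 ERR targets, 7 PPAR targets, and 0 mitochondrially encoded genes passed, with 1 of the latter against Geltrex™ and 1 partner and 1 input against the control. Without the libraries of highest and lowest GC content, the regulators passing were 1 (Collagen I and the control), 0 (fibronectin and the control), and 1 (Collagen I and Geltrex™), with 6 partners and 1 mitochondrially encoded gene against fibronectin, 1 of the latter against Geltrex™, and 2 PPAR targets against the control. With the 3 Geltrex™ samples summed into 1, tried because they differed little, 1 regulator passed between Collagen I and Geltrex™ and 0 between fibronectin and the control, with 3 partners, 4 inputs, 3 machinery genes, 3 ERR targets, 6 PPAR targets, and 0 mitochondrially encoded genes against Geltrex™, and 0 PPAR targets against the control. With no filter, 1 regulator passed between Collagen I and the control, 2 between fibronectin and the control, and 1 between fibronectin and Geltrex™, with 13, 13, and 4 mitochondrially encoded genes against fibronectin, Geltrex™, and the control, and 2 PPAR targets against the control. DESeq2 called 1 regulator between Collagen I and the control, 2 between fibronectin and the control, 1 partner against the control, and 2 mitochondrially encoded genes against Geltrex™. With only the groups compared, 0 regulators passed between fibronectin and the control and 0 PPAR targets between Collagen I and the control. With a fold of at least 2, the regulators passing were 1, 1, and 0 for Collagen I and fibronectin, Collagen I and Geltrex™, and fibronectin and the control. Same-numbered samples correlated between -0.154 and 0.225 and differently numbered ones between -0.3 and 0.328. For Collagen I and fibronectin the same-numbered values were 0.0473, 0.169, and 0.225, and the others ran from -0.209 to 0.0424. Whether the numbers pair the samples is not given in the sources used here. The replicate block gave 2 regulators between fibronectin and the control and 9 mitochondrially encoded genes against both fibronectin and Geltrex™. Values near 0 turned sign without the 2 GC libraries for *Ppargc1b* (-0.11 Collagen I and the control, -0.13 and -0.14 against fibronectin and Geltrex™, -0.00995 fibronectin and Geltrex™), *Perm1* (0.19 fibronectin and the control, 0.0399 fibronectin and Geltrex™), and *Ppard* (-0.0622 fibronectin and the control, also -0.0241 with 10 counts in every sample and -0.0144 with only the groups compared). With the covariate the same held for *Ppargc1b* (-0.0603 Collagen I and fibronectin), *Perm1* (0.26 and 0.0230), *Nrf1* (0.0062), and *Gabpa* (-0.0608), the latter both between fibronectin and Geltrex™. Leaving out each sample gave 0 to 1, 0 to 2, 0 to 0, 3 to 4, 1 to 2, and 0 to 1 regulators for Collagen I, fibronectin, and Geltrex™ against the control, Collagen I against fibronectin and Geltrex™, and fibronectin against Geltrex™. Against fibronectin and Geltrex™ it gave 8 to 13 and 9 to 13 partners, 11 to 14 and 6 to 12 inputs, 3 to 4 and 7 to 8 machinery genes, 15 to 20 and 5 to 8 ERR targets, 9 to 13 and 10 to 12 PPAR targets, and 1 to 9 and 1 to 10 mitochondrially encoded genes, and 0 to 1 PPAR targets against the control. Their signs turned for *Ppargc1b* between -0.11 and 0.19 (Collagen I and the control), -0.0950 and 0.22 (fibronectin and the control), -0.15 and 0.19 (Collagen I and fibronectin), -0.14 and 0.14 (Collagen I and Geltrex™), and -0.14 and 0.17 (fibronectin and Geltrex™). They turned for *Perm1* between -0.33 and 0.20 (fibronectin and the control), -0.0445 and 0.36 (Geltrex™ and the control), and -0.49 and 0.0474 (fibronectin and Geltrex™), for *Ppard* between -0.0457 and 0.0494 (fibronectin and the control) and -0.10 and 0.0150 (Collagen I and Geltrex™), and for *Nrf1* between -0.11 and 0.0109 (Collagen I and the control) and -0.0034 and 0.10 (fibronectin and the control). Shares of all genes passing were determined for the main fit alone, so a loss of calls in these lists cannot be set beside that over all genes. The cause of these changes was not tested. Depth limits *Ppara*, *Esrrg*, and *Perm1* most.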
